A study of Mus musculus with 24 samples.

Results

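The genes described here are Il6 and Il10 with the receptors and the transcription factor through which they act, 9 genes in all: the cytokines Il6, Osm, Lif and Il10, the receptor chains Il6ra, Il6st, Il10ra and Il10rb, and Stat3. They were taken by name from 55291 gene symbols, and all 9 were among the 13246 symbols that had 1 TPM or more in at least 4 libraries and were tested. IL-6 is a cytokine of the acute phase that dendritic cells and macrophages release on contact with bacteria. It binds its own receptor chain (Il6ra) and then the shared signal chain gp130 (Il6st), which oncostatin M (Osm) and leukemia inhibitory factor (Lif) also use. IL-10 acts through a pair of chains of its own (Il10ra, Il10rb) and restrains the same cells, yet both receptors pass their signal through Janus kinases to STAT3.

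The study asked how inherited variation in wild-derived mice bears on the response to endotoxin. Dendritic cells were grown from the bone marrow of single mice for 7 days with the growth factor GM-CSF at 20 ng/ml, and were given lipopolysaccharide (LPS) of E. coli at 10 ng/ml for 6 hours or left untreated. The 6 groups were PWD with LPS, PWD untreated, C57 with LPS, C57 untreated, B6 with LPS and B6 untreated, with 4 libraries each and 24 in all. PWD is inbred and goes back to wild-caught Mus musculus musculus. C57 and B6 are kept apart as in the labels, with the difference between them, like the age of the mice, not given in the sources used here. All groups share the GM-CSF culture, which yields a mixture of dendritic, macrophage-like and granulocytic cells, and no sort is described.

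The markers of the labelled cell type were measured as follows. Itgax (CD11c) averaged 238 to 340 TPM over the 6 groups and Flt3 stayed under 1 TPM in every group. Summed TPM of 12 dendritic cell markers ran from 1782 to 2501 in PWD with LPS, 1724 to 2961 in PWD untreated, 1454 to 1753 in C57 with LPS, 1451 to 1891 in C57 untreated, 3826 to 4376 in B6 with LPS and 3512 to 4693 in B6 untreated. Summed TPM of 10 neutrophil markers ran from 767 to 1203, 1707 to 2878, 1434 to 2776, 2295 to 3899, 1063 to 1317 and 1533 to 1771 in the same order of groups. In the dendritic cell list 11 genes were tested, of which 0 were higher and 10 lower in PWD than in B6 untreated, and 1 higher and 9 lower under LPS. In C57 against B6, 0 were higher and 9 lower untreated, and 0 and 10 under LPS. In PWD against C57, 3 were higher and 5 lower untreated, and 5 and 5 under LPS. The 12 macrophage and monocyte markers summed to 1225 to 1471 TPM in untreated PWD, 1803 to 2017 TPM in untreated C57 and 2054 to 2617 TPM in untreated B6, without overlap, and to 1860 to 2233 TPM over the libraries with LPS. Of the 12, 10 were lower in untreated PWD than in B6 and 10 than in C57 (medians -1.38 and -1.33), and under LPS 8 and 9 were lower (medians -1.44 and -1.71), with 2 higher each time. The 10 T and NK cell markers summed to 0.479 to 2.50 TPM. The 10 markers of mast cells, basophils and eosinophils summed to 102 to 221 TPM in PWD and 11.1 to 43.8 TPM in C57 and B6, and Siglech, the defining plasmacytoid marker, was under 1 TPM in every group. The 8 B cell and plasmacytoid markers summed to 96.8 to 123 TPM in PWD and 225 to 395 TPM in C57 and B6 with LPS, and to 32.2 to 41.9 TPM in PWD and 96.0 to 133 TPM in C57 and B6 untreated. All 6 tested were lower in PWD than in B6 and than in C57, with and without LPS. The 8 stromal and endothelial markers summed to 9.82 to 28.4 TPM. The B6 libraries therefore held the highest dendritic cell sums and did not overlap those of the other strains, and the part of these markers in the strain differences below was not tested. In bulk RNA, fewer cells of a type and less RNA per cell cannot be told apart. Structural RNA took 28.8% to 44.2% of TPM. It took 41.9% and 40.3% in untreated PWD mice 1 and 2 against 29.3% and 28.8% in mice 3 and 4, and 39.9% and 41.2% against 31.6% and 33.4% in C57 with LPS. Xist, which marks females, stood at 41.9 to 104 TPM in mice 3 and 4 of each strain and at 0.0901 TPM or less in mice 1 and 2. Over the 9 genes and 12 comparisons, mice 1 and 2 alone lost 15 calls and gained 13. Mice 3 and 4 alone lost 12 and gained 4. Values within a pair of mice are given below for part of these calls, and few of the gained ones are among them. The pairs do not tell sex and structural RNA apart.

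Tests were made with limma on log2(TPM + 1), and a gene was called at an adjusted p below 0.05, with the Benjamini-Hochberg adjustment made over all 13246 symbols. All adjusted p below, other than those of ratios, are of this kind. LPS left most genes slightly lower on this scale, with a median log2 difference over all tested genes of -0.32 in PWD, -0.32 in C57 and -0.43 in B6, against which the small rises below are to be read. Of the 9 genes, 6 rose and 2 fell in PWD, where 11.1% of all tested genes were called higher and 52.4% lower. In C57, 5 rose and 2 fell, with 10.4% and 52.2%. In B6, 7 rose and 2 fell, with 11.9% and 59.7%. With median-of-ratios scaling, which brings the median difference close to 0, the calls over all genes were split into 3564 higher and 3468 lower in PWD (1464 and 6946 as deposited), 3348 and 3403 in C57 (1371 and 6908) and 4104 and 4031 in B6 (1575 and 7905), and 7 of the 9 genes rose and 2 fell in each strain. Il6, Il10, Il10ra and Stat3 rose and Il6ra and Il6st fell in each strain, while Osm, Lif and Il10rb each missed the threshold in 1 strain.

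**Figure D1:**
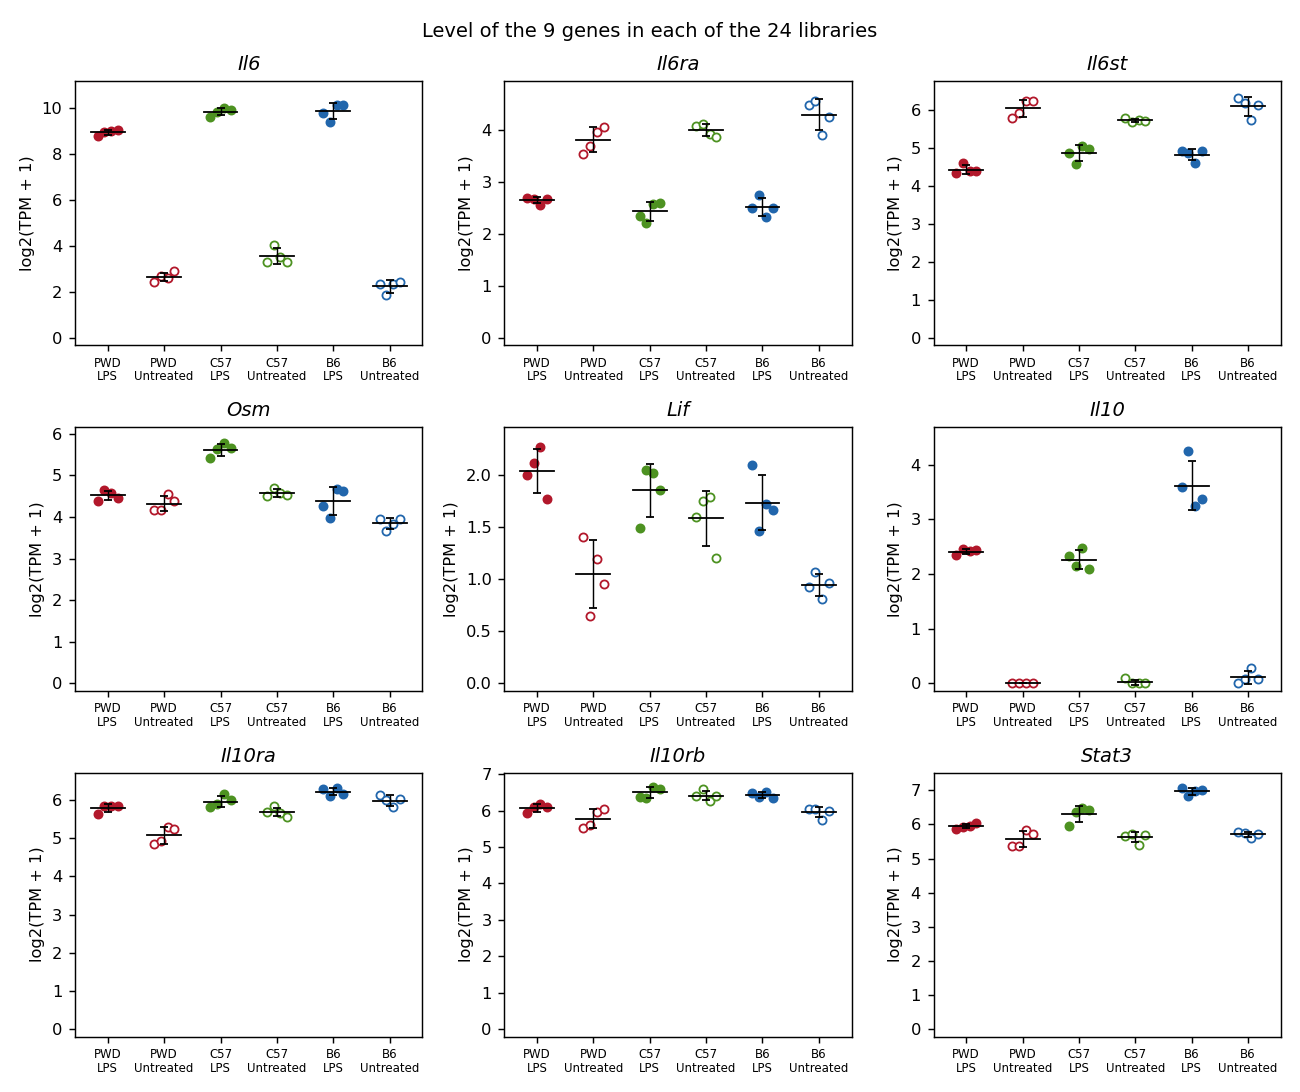
Level of each gene as log2(TPM + 1) (y axis) in the 6 groups (x axis), 1 point per library, filled for LPS and open for untreated, with the mean (line) and SD (bars) of 4 libraries. Il6 and Il10 separate LPS from untreated libraries in every strain, and Stat3 stands highest in the 4 B6 libraries with LPS.

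Il6 encodes the ligand itself and lies on chromosome 5 (30013114 to 30019981, plus strand, mm10). LPS libraries held 438, 494, 506 and 520.1 TPM in PWD against 4.42, 5.33, 5.01 and 6.35 TPM in untreated PWD. They held 783, 887, 1013 and 953 TPM in C57 against 8.77, 15.4, 10.4 and 8.89 TPM untreated, and 876, 663, 1113 and 1119 TPM in B6 against 4.01, 2.57, 4.004 and 4.42 TPM untreated. The groups with and without LPS were far apart in each strain, PWD with LPS lay below all libraries of C57 and B6 with LPS, and C57 and B6 with LPS overlapped. Il6 rose by a log2 difference of 6.29 ± 0.17 (SE) in PWD (adjusted p = 2.13e-19), 6.29 ± 0.17 in C57 (adjusted p = 2.57e-19) and 7.62 ± 0.17 in B6 (adjusted p = 4.10e-21), with 4 libraries per group. The ratio of mean TPM was 92.7 in PWD, 83.7 in C57 and 251 in B6.

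The promoter window of Il6 in the reference genome, 250 bases before to 50 bases after the gene start (RefSeq, GRCm38.p6), is printed because Il6 had the largest rise of the 9 genes. It covers chr5:30012864-30013163 on the plus strand, and capitals mark matches to letters that nuclear factors of the LPS response are known to bind. These letters are GGNNNTTCC for NF-kB, TTGNGCAA for C/EBP, ACGTCA for CREB factors (CRE) and TGANTCA for AP-1, searched on both strands, and TTCNNNGAA for STAT factors was searched too.
Il6: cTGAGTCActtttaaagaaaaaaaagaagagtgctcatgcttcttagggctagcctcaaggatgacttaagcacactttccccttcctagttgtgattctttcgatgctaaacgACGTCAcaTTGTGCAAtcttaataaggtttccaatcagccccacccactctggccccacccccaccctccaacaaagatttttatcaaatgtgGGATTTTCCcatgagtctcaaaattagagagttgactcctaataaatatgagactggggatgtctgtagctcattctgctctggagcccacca
In the order printed, the matches are AP-1, CRE, C/EBP and NF-kB, the last beginning 43 bases before the start. Over 32851 promoter windows of the same length, 18.5% held the NF-kB letters, 2.94% the C/EBP letters, 7.51% the CRE letters, 7.81% AP-1 and 8.30% the STAT letters. A match is only a description of the reference sequence, which is not that of PWD.

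Osm and Lif, the other ligands of gp130, lie next to each other on chromosome 11 with 16530 bases between them (Osm at 4236420 to 4241026, Lif at 4257557 to 4272514, both on the plus strand). Osm held 20.1, 24.2, 22.8 and 20.8 TPM in PWD with LPS against 17.0, 17.1, 22.5 and 19.8 TPM untreated, groups that overlapped. In C57 it held 41.8, 48.5, 53.6 and 49.3 TPM with LPS against 21.8, 25.0, 22.7 and 22.0 TPM untreated, and in B6 18.3, 14.7, 24.6 and 23.8 TPM with LPS against 14.5, 11.8, 13.1 and 14.5 TPM untreated. C57 with LPS thus stood above every other group and untreated B6 below every other, and the 4 groups between them overlapped. Osm rose by 1.04 ± 0.12 in C57 (adjusted p = 1.13e-07) and 0.54 ± 0.12 in B6 (adjusted p = 0.000427), and had 0.20 ± 0.12 in PWD (adjusted p = 0.168). The PWD value passed the threshold with median-of-ratios scaling (0.56), quantile normalization (0.50) and without structural RNA (0.26), and the B6 rise missed it in mice 1 and 2 alone (0.31).

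Lif was low, with 0.567 to 3.80 TPM over the 24 libraries. It held 2.997, 3.33, 3.80 and 2.41 TPM in PWD with LPS against 1.64, 0.567, 1.29 and 0.932 TPM untreated, 1.81, 3.12, 3.06 and 2.62 TPM in C57 with LPS against 2.03, 2.36, 2.45 and 1.30 TPM untreated, and 3.28, 1.76, 2.29 and 2.16 TPM in B6 with LPS against 0.898, 1.10, 0.758 and 0.951 TPM untreated. The groups overlapped only in C57. Lif rose by 0.99 ± 0.17 in PWD (adjusted p = 1.40e-05) and 0.79 ± 0.17 in B6 (adjusted p = 0.000141) and had 0.27 ± 0.17 in C57 (adjusted p = 0.158), which passed with median-of-ratios scaling (0.52) and quantile normalization (0.56). TPM keep no depth, so the counting error at these levels is unknown.

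Il6ra and Il6st, the binding chain and the signal chain of the IL-6 receptor, both fell under LPS in every strain, and their groups with and without LPS did not overlap in any. Il6ra (chromosome 3, 89864059 to 89913196, minus strand) held 5.49, 5.42, 4.93 and 5.37 TPM in PWD with LPS against 10.6, 12.1, 14.7 and 15.7 TPM untreated. The C57 values were 4.06, 3.64, 5.01 and 5.06 TPM with LPS against 16.02, 16.4, 14.2 and 13.7 TPM untreated, and the B6 values 4.67, 5.73, 4.001 and 4.63 TPM with LPS against 21.6, 22.5, 14.1 and 18.03 TPM untreated. Under LPS the ranges of the 3 strains overlapped. The log2 differences were -1.17 ± 0.13 in PWD (adjusted p = 4.03e-08), -1.57 ± 0.13 in C57 (adjusted p = 3.13e-10) and -1.79 ± 0.13 in B6 (adjusted p = 8.09e-12). A gene model on the opposite strand, Gm42809, overlaps Il6ra, and the strand setting was not given in the sources used here.

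Il6st (chromosome 13, 112464070 to 112510086, plus strand) held 19.2, 23.2, 20.1 and 20.1 TPM in PWD with LPS against 54.9, 59.4, 74.3 and 74.8 TPM untreated. In C57 it held 28.1, 22.8, 32.2 and 30.3 TPM with LPS against 54.5, 50.7, 52.8 and 51.5 TPM untreated, and in B6 29.3, 28.1, 23.4 and 29.4 TPM with LPS against 79.2, 72.2, 52.8 and 69.3 TPM untreated. The groups with and without LPS did not overlap, and PWD with LPS had the lowest mean of the 6 groups. The log2 differences were -1.62 ± 0.12 in PWD (adjusted p = 1.39e-11), -0.87 ± 0.12 in C57 (adjusted p = 1.00e-06) and -1.27 ± 0.12 in B6 (adjusted p = 7.15e-10). With median-of-ratios scaling, which removes the shift of the median gene, the differences were -1.24 in PWD, -0.51 in C57 and -0.72 in B6, all called. The promoter windows of both chains (RefSeq, GRCm38.p6) are shown for comparison with that of Il6, since they moved the other way: chr3:89913147-89913446 on the minus strand for Il6ra and chr13:112463820-112464119 on the plus strand for Il6st.
Il6ra: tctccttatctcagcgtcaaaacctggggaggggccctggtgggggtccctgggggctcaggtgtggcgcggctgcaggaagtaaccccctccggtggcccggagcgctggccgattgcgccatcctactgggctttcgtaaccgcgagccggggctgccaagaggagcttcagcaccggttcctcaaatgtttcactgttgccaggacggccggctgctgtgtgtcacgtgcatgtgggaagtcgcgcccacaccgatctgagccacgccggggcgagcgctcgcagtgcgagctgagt
Il6st: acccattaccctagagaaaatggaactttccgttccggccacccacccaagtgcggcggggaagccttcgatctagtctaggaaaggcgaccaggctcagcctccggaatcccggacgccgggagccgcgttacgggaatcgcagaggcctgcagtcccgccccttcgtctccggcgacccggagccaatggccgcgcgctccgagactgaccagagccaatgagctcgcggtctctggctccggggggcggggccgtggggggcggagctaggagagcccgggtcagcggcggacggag
Neither window holds any of the 5 sets of letters exactly as written. Longer or looser forms of these letters were not searched, so sites of the same factors may be present. The search says nothing about binding elsewhere.

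Il10, the anti-inflammatory ligand (chromosome 1, 131019845 to 131024974, plus strand), was close to absent without LPS. It held 4.07, 4.49, 4.36 and 4.40 TPM in PWD with LPS and was listed at 0 in all 4 untreated PWD libraries. In C57 it held 4.04, 3.42, 4.57 and 3.27 TPM with LPS, and was listed at 0 in 3 untreated libraries and at 0.0662 TPM in the other. In B6 it held 11.1, 18.1, 8.43 and 9.40 TPM with LPS against 0, 0.0625, 0.214 and 0.0559 TPM untreated. Every B6 library with LPS thus exceeded every PWD and C57 library with LPS, and PWD and C57 overlapped. Il10 rose by 2.41 ± 0.15 in PWD (adjusted p = 1.67e-13), 2.24 ± 0.15 in C57 (adjusted p = 1.49e-12) and 3.51 ± 0.15 in B6 (adjusted p = 9.20e-17), differences that depend on the pseudocount of 1 TPM because the untreated values are at or near 0. The ratio of mean TPM was 231 in C57 and 142 in B6, the other order. It has no value in PWD, where the untreated mean was 0.

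The chains of the IL-10 receptor moved less. Il10ra, the ligand-binding chain (chromosome 9, 45253837 to 45269149, minus strand), held 48.5, 55.8, 56.4 and 56.3 TPM in PWD with LPS against 27.8, 29.1, 38.4 and 36.5 TPM untreated, without overlap. It held 54.9, 58.2, 69.5 and 62.7 TPM in C57 with LPS against 50.7, 55.7, 49.0 and 46.0 TPM untreated, and 76.8, 67.8, 78.8 and 70.6 TPM in B6 with LPS against 68.8, 62.6, 54.8 and 63.5 TPM untreated, and these groups overlapped. The log2 differences were 0.71 ± 0.10 in PWD (adjusted p = 1.47e-06), 0.28 ± 0.10 in C57 (adjusted p = 0.0215) and 0.23 ± 0.10 in B6 (adjusted p = 0.0430). The C57 call was lost without C57_LPS replicate 3 (0.21) or C57_Untreated replicate 4 (0.23) and in mice 1 and 2 alone (0.09), and the value was 0.65 with median-of-ratios scaling. The B6 call was lost without B6_LPS replicate 1 (0.21) or 3 (0.20), without B6_Untreated replicate 2 (0.24), 3 (0.17) or 4 (0.24), with no filter, and in mice 1 and 2 alone (0.13), and the value was 0.79 with median-of-ratios scaling.

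Il10rb, the accessory chain that IL-10 shares with IL-22 and interferon lambda (chromosome 16, 91406164 to 91425834, plus strand), held 60.1, 67.6, 71.4 and 67.1 TPM in PWD with LPS against 44.9, 47.2, 61.9 and 64.6 TPM untreated. It held 82.4, 81.0, 99.4 and 96.2 TPM in C57 with LPS against 83.7, 94.6, 75.4 and 83.4 TPM untreated, and 88.6, 81.2, 90.9 and 80.6 TPM in B6 with LPS against 65.1, 64.6, 52.9 and 63.0 TPM untreated. Only in B6 did the groups stand apart. The log2 differences were 0.29 ± 0.11 in PWD (adjusted p = 0.0200), 0.09 ± 0.11 in C57 (adjusted p = 0.492) and 0.47 ± 0.11 in B6 (adjusted p = 0.000376). The PWD call was lost without PWD_Untreated replicate 1 (0.21) or 2 (0.23), without PWD_LPS replicate 3 (0.26), in a fit of these groups alone and in mice 3 and 4 alone (0.13), and the C57 value was called with median-of-ratios scaling (0.46). A protein-coding model on the same strand, Gm21970, overlaps Il10rb, so its level is uncertain.

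Stat3, the transcription factor that both receptors activate (chromosome 11, 100885098 to 100939540, minus strand), rose in all 3 strains and stood highest in B6. It held 57.5, 60.4, 61.5 and 64.8 TPM in PWD with LPS against 40.5, 40.5, 55.9 and 51.9 TPM untreated, and 60.6, 80.9, 89.2 and 85.5 TPM in C57 with LPS against 50.04, 52.2, 41.4 and 50.6 TPM untreated. In B6 it held 134, 114, 125 and 127 TPM with LPS against 53.5, 52.5, 47.7 and 51.7 TPM untreated. The groups with and without LPS did not overlap in any strain, and the 3 untreated groups overlapped. B6 with LPS lay above all other libraries, while PWD and C57 with LPS overlapped. The log2 differences were 0.38 ± 0.11 in PWD (adjusted p = 0.00481), 0.68 ± 0.11 in C57 (adjusted p = 1.11e-05) and 1.26 ± 0.11 in B6 (adjusted p = 1.98e-10). The PWD call was lost in mice 3 and 4 alone (0.23, adjusted p = 0.0633), and the values with median-of-ratios scaling were 0.75, 1.051 and 1.82 in the same order of strains. Stat5a overlaps Stat3 on the opposite strand, and Stat5a itself rose by 1.25 in PWD, 1.04 in C57 and 1.68 in B6, and a share of its reads in the Stat3 values was not tested.

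The promoter window of Stat3, chr11:100939491-100939790 on the minus strand (RefSeq, GRCm38.p6), is printed as the second of the genes that rose in all strains and have a window in the table used.
Stat3: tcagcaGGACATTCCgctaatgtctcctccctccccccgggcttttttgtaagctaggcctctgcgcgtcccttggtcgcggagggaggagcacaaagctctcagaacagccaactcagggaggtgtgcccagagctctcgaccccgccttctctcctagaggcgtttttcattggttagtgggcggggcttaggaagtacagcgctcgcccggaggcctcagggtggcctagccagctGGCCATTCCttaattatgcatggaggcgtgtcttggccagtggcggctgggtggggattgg
Capitals mark matches to the NF-kB letters GGNNNTTCC, beginning 244 and 11 bases before the start. The STAT letters were not found in any of the 4 windows printed.

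**Figure D2:**
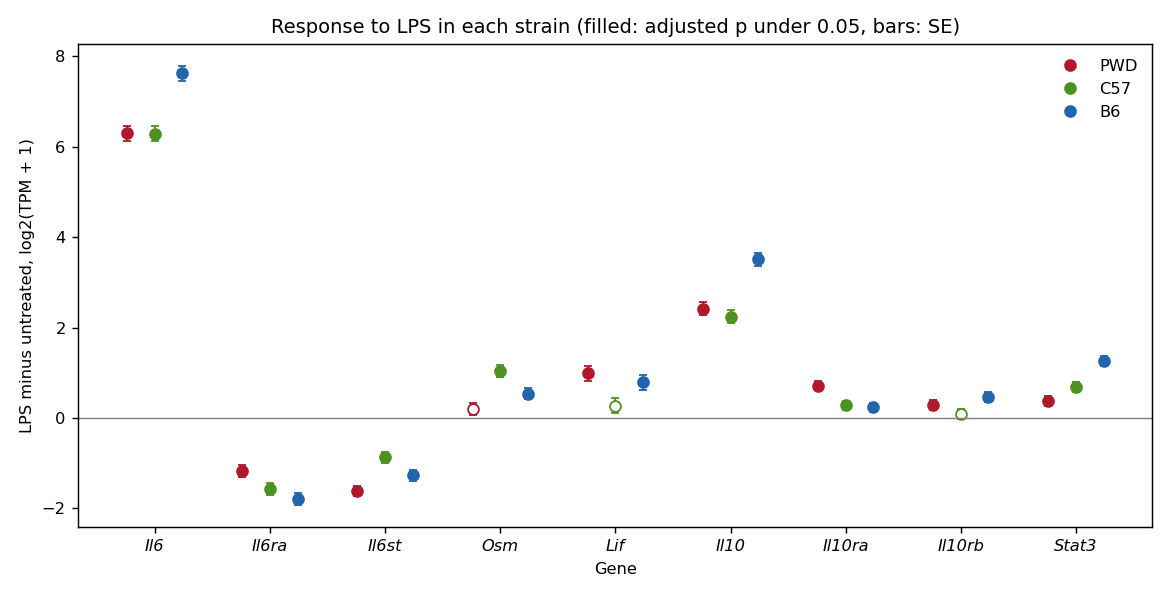
Log2 difference between LPS and untreated libraries (y axis, log2(TPM + 1), bars SE) for each gene (x axis) in PWD, C57 and B6, filled where called. Il6 has the tallest rise at 6.29, 6.29 and 7.62, and Il6ra and Il6st lie below 0 in all 3 strains.

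Without LPS the strains already differed in several of these genes. Between PWD and B6, 2 of the 9 were higher in PWD and 2 lower, with 37.2% of all tested genes called higher and 19.7% lower (4930 and 2614 genes, or 4152 and 4007 with median-of-ratios scaling). Osm was higher in PWD by 0.47 ± 0.12 (adjusted p = 0.00225) and Il10ra lower, at -0.91 ± 0.10 (adjusted p = 1.72e-08), each without overlap, and Il6ra was lower with overlap, at -0.49 ± 0.13 (adjusted p = 0.00298). Il6 was higher in PWD by 0.41 ± 0.17 (adjusted p = 0.0382), but the groups overlapped and the call was lost with median-of-ratios scaling (0.27), quantile normalization (0.14), no filter, mice 1 and 2 alone, and without B6_Untreated replicate 2 (0.28) or PWD_Untreated replicate 2 (0.40), 3 (0.43) or 4 (0.33). The Osm call was lost in mice 1 and 2 alone (0.36) and the Il6ra call in mice 3 and 4 alone (-0.07), and Il10rb, at -0.18 (adjusted p = 0.164), was called lower without PWD_Untreated replicate 4 (-0.26).

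Between untreated PWD and C57, 1 gene was higher in PWD and 4 lower, with 20.1% and 26.2% of all tested genes called. Il6 (-0.89 ± 0.17, adjusted p = 8.25e-05), Il10ra (-0.61 ± 0.10, adjusted p = 1.59e-05) and Il10rb (-0.63 ± 0.11, adjusted p = 2.19e-05) were lower in PWD without overlap. Lif was lower with overlap, at -0.53 ± 0.17 (adjusted p = 0.00975), a call lost without PWD_Untreated replicate 2 (-0.40) and in either pair of mice. Il6st was higher by 0.31 ± 0.12 (adjusted p = 0.0355), a call lost without C57_Untreated replicate 2 (0.30), 3 (0.32) or 4 (0.30), without PWD_Untreated replicate 3 (0.25) or 4 (0.25), with no filter and in mice 1 and 2 alone (0.12). Osm, at -0.26 (adjusted p = 0.0978), was called lower without PWD_Untreated replicate 3 (-0.33). Between untreated C57 and B6, 4 were higher in C57 and 2 lower, with 31.9% and 6.92% of all tested genes called (4219 and 916 genes, or 2717 and 2533 with median-of-ratios scaling). Il6 was higher in C57 by 1.30 ± 0.17 (adjusted p = 1.28e-06), Osm by 0.72 ± 0.12 (adjusted p = 4.87e-05), Lif by 0.64 ± 0.17 (adjusted p = 0.00342) and Il10rb by 0.45 ± 0.11 (adjusted p = 0.00169), all without overlap, though Lif missed the threshold in mice 1 and 2 alone (0.67). Il6st, at -0.36 ± 0.12 (adjusted p = 0.0185), and Il10ra, at -0.30 ± 0.10 (adjusted p = 0.0211), were lower with overlap. The Il6st call was lost without B6_Untreated replicate 1 (-0.29) or 2 (-0.33) and in mice 3 and 4 alone (-0.21), and the Il10ra call without B6_Untreated replicate 1 (-0.25) or C57_Untreated replicate 4 (-0.26) and in mice 1 and 2 alone. Il6ra, at -0.30 (adjusted p = 0.0732), was called lower without B6_Untreated replicate 3 (-0.43). Stat3 was called in no pair of untreated strains as deposited, with -0.13 between PWD and B6, -0.05 between PWD and C57 and -0.08 between C57 and B6, but with median-of-ratios scaling it was called lower than in B6, at -0.29 in PWD and -0.29 in C57.

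Under LPS the direction was mostly towards lower levels in PWD. Of the 9 genes, 0 were higher and 6 lower in PWD than in B6, with 49.7% and 19% of all tested genes called (6580 and 2511 genes, or 4692 and 4535 with median-of-ratios scaling), and 0 were higher and 5 lower in PWD than in C57, with 24.4% and 29.8%. At an unadjusted limma p under 0.05, 0 of the 9 were higher in PWD in either comparison. Median-of-ratios scaling and the omission of structural RNA each called Il6ra higher in PWD than in C57 (0.27 and 0.26), mice 1 and 2 alone called Il6ra (0.41) in that comparison and Osm (0.40) against B6, and Lif was called against B6 without B6_LPS replicate 1 (0.42). Il6ra, at 0.14 against B6 as deposited, was called lower in PWD with quantile normalization (-0.30, adjusted p = 0.00859). Il6 was lower in PWD, at -0.92 ± 0.17 against B6 (adjusted p = 3.45e-05) and -0.89 ± 0.17 against C57 (adjusted p = 7.52e-05). Stat3 was lower too, at -1.02 ± 0.11 against B6 (adjusted p = 8.54e-09) and, with overlap, -0.35 ± 0.11 against C57 (adjusted p = 0.00926), a call lost in mice 1 and 2 alone (-0.25). Il10 was lower than in B6, at -1.21 ± 0.15 (adjusted p = 4.57e-08) and had 0.15 ± 0.15 against C57 (adjusted p = 0.397).

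The gp130 chain and the accessory IL-10 chain were lower in PWD than in both other strains under LPS. Il6st had -0.40 ± 0.12 against B6 (adjusted p = 0.00518) and -0.43 ± 0.12 against C57 (adjusted p = 0.00370), the second with overlap and lost in mice 1 and 2 alone (-0.25). Il10rb had -0.35 ± 0.11 against B6 (adjusted p = 0.00531) and -0.42 ± 0.11 against C57 (adjusted p = 0.00171). Il10ra was lower than in B6, at -0.43 ± 0.10 (adjusted p = 0.000581), and Osm was lower than in C57, at -1.10 ± 0.12 (adjusted p = 2.45e-08). These comparisons share the PWD libraries and are not independent.

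Between C57 and B6 with LPS, 1 gene was higher in C57 and 3 lower, with 49.1% and 9.69% of all tested genes called (6500 and 1283 genes, or 3768 and 3802 with median-of-ratios scaling). Osm was higher by 1.23 ± 0.12 (adjusted p = 5.98e-09), and Il10, at -1.36 ± 0.15 (adjusted p = 1.47e-08), and Stat3, at -0.67 ± 0.11 (adjusted p = 1.38e-05), were lower, all without overlap. Il10ra was lower with overlap, at -0.26 ± 0.10 (adjusted p = 0.0311), a call lost with no filter, in mice 3 and 4 alone (-0.17) and without B6_LPS replicate 1 (-0.24) or 3 (-0.23) or C57_LPS replicate 1 (-0.21) or 2 (-0.24). Il6 had -0.03 ± 0.17 (adjusted p = 0.911) as deposited and -0.42 with median-of-ratios scaling, which called it. That scaling also called Il6ra (-0.42, against -0.08 as deposited), Il6st (-0.35, against 0.03) and Il10rb (-0.32, against 0.07) lower in C57, so the direction of Il6st and Il10rb between C57 and B6 depends on the scaling.

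**Figure D3:**
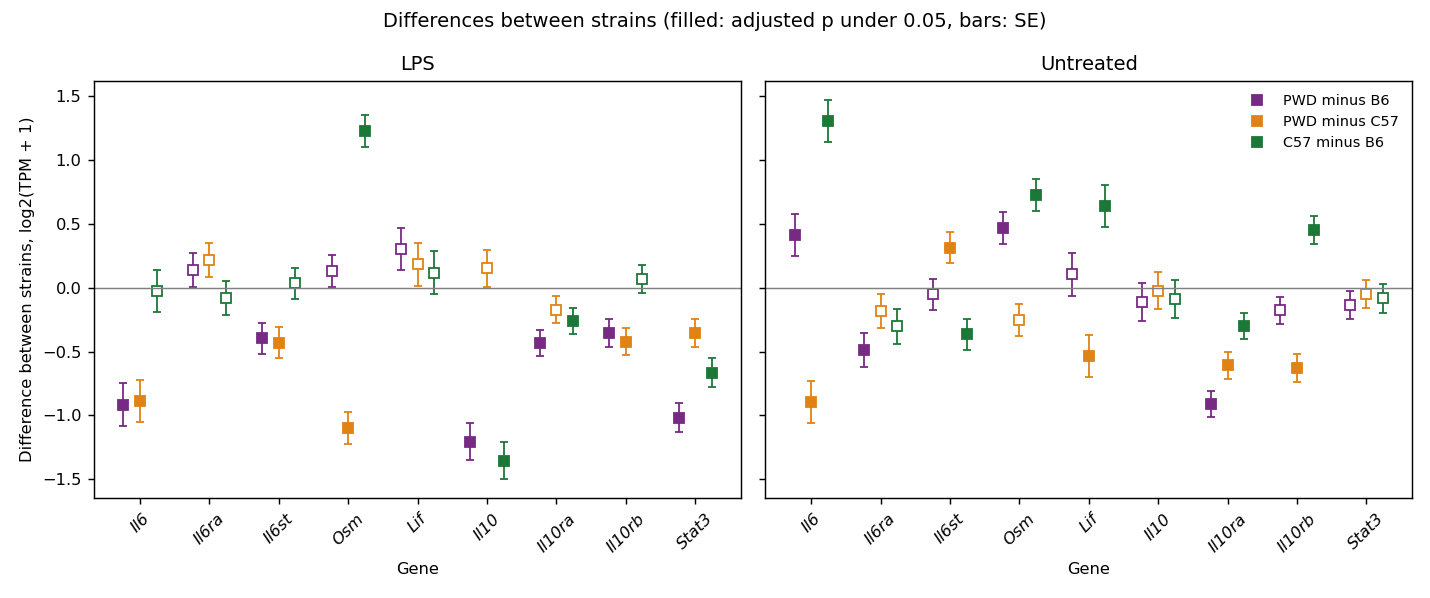
Difference between 2 strains (y axis, log2(TPM + 1), bars SE) for each gene (x axis), under LPS on the left and untreated on the right, filled where called. Under LPS, Osm in C57 minus B6 is the highest point at 1.23 and Il10 in C57 minus B6 the lowest at -1.36, and untreated Il6 in C57 minus B6 stands at 1.30.

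The responses to LPS themselves were compared in the same fit. Between PWD and B6, 2 responses were higher in PWD and 3 lower, with 16% and 7.5% of all tested genes called (2117 and 994 genes, or 1969 and 2219 with median-of-ratios scaling). The response was smaller in PWD for Il6 (-1.33 ± 0.23, adjusted p = 0.000187), Il10 (-1.09 ± 0.21, adjusted p = 0.000278) and Stat3 (-0.88 ± 0.16, adjusted p = 0.000156). It was higher for Il10ra (0.48 ± 0.14, adjusted p = 0.0162), and for Il6ra (0.62 ± 0.19, adjusted p = 0.0169), whose fall was smaller in PWD. The Il10, Il10ra and Il6ra differences missed the threshold in mice 3 and 4 alone (-0.70, 0.24 and 0.28), and Il10 also with a pseudocount of 0.1 TPM (-0.61). Osm, at -0.34 (adjusted p = 0.173), was called lower without B6_LPS replicate 2 (-0.48). With median-of-ratios scaling 8 of the 9 responses were called, since those of Il6st (-0.52), Osm (-0.51) and Il10rb (-0.36) were then called lower in PWD as well.

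Between C57 and B6, 0 responses were higher in C57 and 3 lower, with 10.9% and 3.39% of all tested genes called (1447 and 449 genes, or 1447 and 1891 with median-of-ratios scaling). At an unadjusted limma p under 0.05, 2 were higher and 5 lower. The lower ones were Il6 (-1.33 ± 0.23, adjusted p = 0.000422), Il10 (-1.27 ± 0.21, adjusted p = 0.000143) and Stat3 (-0.58 ± 0.16, adjusted p = 0.0133), against the same B6 libraries. Osm, at 0.50 ± 0.18 (adjusted p = 0.0547), was called higher with the mouse as a block (adjusted p = 0.0322), with a filter of 5 TPM (adjusted p = 0.0426), without structural RNA (0.57) and without B6_Untreated replicate 2 (0.56), B6_LPS replicate 3 (0.60) or 4 (0.59) or C57_LPS replicate 1 (0.57). Il6st, at 0.40 ± 0.17 (adjusted p = 0.122), was called higher with quantile normalization (0.35), without structural RNA (0.46) and without B6_Untreated replicate 3 (0.51) or C57_LPS replicate 2 (0.49). Lower calls were added for Il10rb with median-of-ratios scaling (-0.57), quantile normalization (-0.37) and without structural RNA (-0.32), and for Lif with the first 2 of these (-0.66 and -0.74). For Il6 the untreated level was higher in C57 and the levels under LPS overlapped. Il6 missed the threshold in mice 1 and 2 alone (-1.46), Stat3 in mice 3 and 4 alone (-0.41), and Il10 with a pseudocount of 0.1 TPM (-0.98).

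Between PWD and C57, 2 responses were higher in PWD and 2 lower, with 5.41% and 5.99% of all tested genes called. The rise of Osm was smaller in PWD (-0.84 ± 0.18, adjusted p = 0.00163) and the fall of Il6st larger (-0.74 ± 0.17, adjusted p = 0.00387), both lost in mice 1 and 2 alone (-0.57 and -0.37). Lif (0.72 ± 0.23, adjusted p = 0.0470) and Il10ra (0.44 ± 0.14, adjusted p = 0.0486) stood at the threshold. Of the 16 fits that each left out 1 library of these groups, the Lif call was lost in 10 (C57_LPS replicates 1 and 4, C57_Untreated replicates 1, 2 and 3, PWD_LPS replicates 1, 2 and 3, PWD_Untreated replicates 2 and 4; 0.58 to 0.73), and the Il10ra call in 11 (C57_LPS replicates 1, 2 and 4, C57_Untreated replicates 1, 2 and 3, PWD_LPS replicates 2, 3 and 4, PWD_Untreated replicates 1 and 2; 0.36 to 0.45). Il10ra was also lost with the mouse as a block (adjusted p = 0.0503). Il6 and Il10 had 0.01 ± 0.23 and 0.17 ± 0.21 in this comparison (adjusted p = 0.995 and 0.696), and Stat3 had -0.30 ± 0.16 (adjusted p = 0.259).

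The ratio of 2 genes within a library is not changed by a factor that scales the whole library. The log2 ratio of Il6 to Il10 under LPS was 6.82 ± 0.06 in PWD, 7.90 ± 0.26 in C57 and 6.36 ± 0.84 in B6 (SD, n = 4), equal to 113, 239 and 82.0 times as much Il6 as Il10 TPM. The library values were 6.75, 6.78, 6.86 and 6.89 in PWD, 7.60, 8.02, 7.79 and 8.19 in C57 and 6.30, 5.19, 7.04 and 6.89 in B6. C57 lay above the other strains without overlap, and B6 had the widest spread. Its mice 1 and 2 stood at 6.30 and 5.19 and its mice 3 and 4 at 7.04 and 6.89. B6 replicate 2 held the least Il6 (663 TPM) and the most Il10 (18.1 TPM) of the 4. By an exact two-sided permutation test over 70 splits, whose smallest p is 0.0286, PWD was lower than C57, at -1.08 (exact p = 0.0286, adjusted over 21 ratio tests 0.0375), and C57 was higher than B6 by 1.54 (exact p = 0.0286, adjusted 0.0375), while PWD and B6 differed by 0.46 (exact p = 0.429, adjusted 0.474). That last difference was 0.073 without B6_LPS replicate 2, 0.69 without B6_LPS replicate 3 and -0.10 in mice 3 and 4 alone.

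The ratio of the IL-10 receptor chains, Il10ra to Il10rb, changed with LPS in opposite directions in the strains. Its log2 value was -0.29 ± 0.04 in PWD with LPS against -0.73 ± 0.07 untreated, -0.55 ± 0.06 in C57 with LPS against -0.74 ± 0.10 untreated, and -0.22 ± 0.03 in B6 with LPS against 0.02 ± 0.05 untreated (SD, n = 4). The ratio rose by 0.43 in PWD and 0.19 in C57 and fell by 0.24 in B6, each without overlap (exact permutation p = 0.0286, adjusted 0.0375). This test takes the libraries as unpaired. The direction was the same in 4 of 4 mice of each strain, and an exact test within the 4 mice, added after the data were seen, gave p = 0.125, the smallest it allows. Untreated B6 was the only group whose ratio reached 0, that is, as much Il10ra as Il10rb, and untreated PWD and C57 stood below it, at -0.75 and -0.76 from B6 without overlap (exact permutation p = 0.0286, adjusted 0.0375). Under LPS the difference was -0.33 between C57 and B6 and 0.25 between PWD and C57, each without overlap, and -0.08 between PWD and B6 with overlap (exact permutation p = 0.0571, adjusted 0.0706). Since Gm21970 overlaps Il10rb, the level of this ratio carries the same uncertainty.

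The ratio of the IL-6 receptor chains, Il6st to Il6ra, parted PWD from the other strains. Its log2 value was 1.96 ± 0.13 in PWD with LPS against 2.32 ± 0.05 untreated, 2.68 ± 0.09 in C57 with LPS against 1.80 ± 0.13 untreated, and 2.54 ± 0.17 in B6 with LPS against 1.85 ± 0.12 untreated (SD, n = 4). It fell by 0.36 in PWD, where the signal chain dropped more than the binding chain, and rose by 0.87 in C57 and 0.69 in B6, where the binding chain dropped more (exact permutation p = 0.0286, adjusted 0.0375, no overlap in any strain). The exact test within the 4 mice again gave its smallest p of 0.125, with 4 of 4 mice in the same direction in each strain. Under LPS, PWD stood at -0.58 from B6 and -0.72 from C57, and untreated it was higher than B6 by 0.46 and than C57 by 0.51, all without overlap (exact permutation p = 0.0286, adjusted 0.0375). C57 and B6 overlapped in both treatments, with a difference of 0.14 under LPS and -0.05 untreated (exact permutation p = 0.2 and 0.571).

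**Figure D4:**
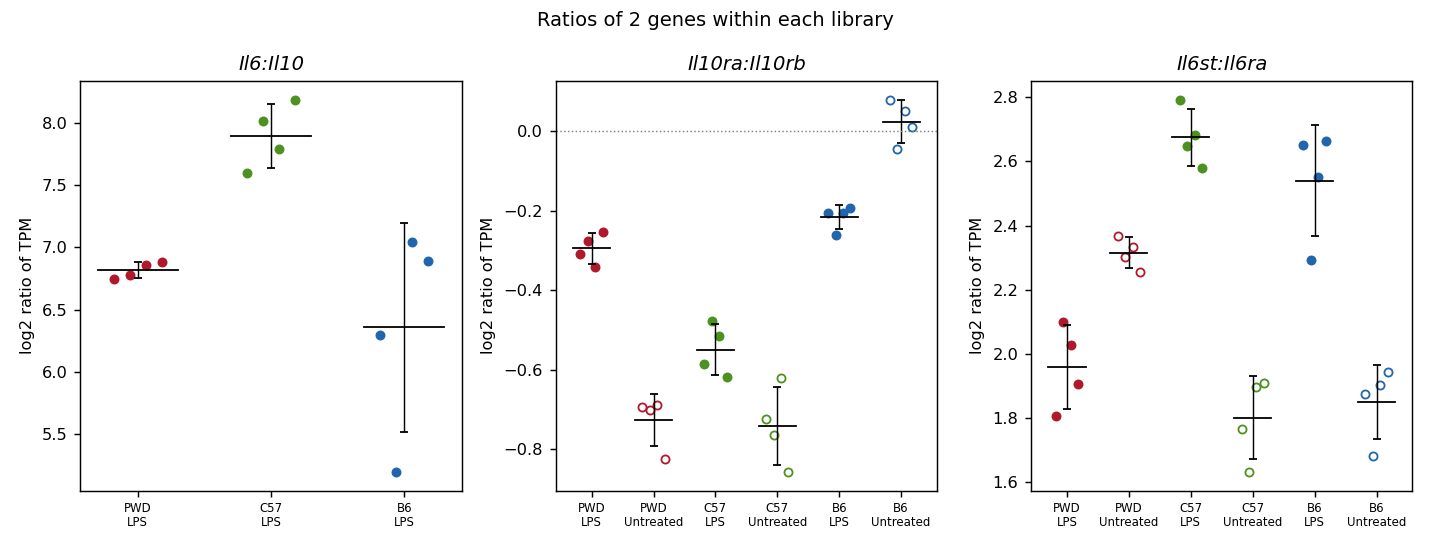
Log2 ratio of TPM of 2 genes within each library (y axis) by group (x axis), 1 point per library with mean and SD of 4, filled for LPS and open for untreated. Il10ra:Il10rb moves up with LPS in PWD and C57 and down in B6, and Il6st:Il6ra moves down in PWD and up in C57 and B6.

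Other genes of the axis were described from lists of its ligands, receptors, kinases, brakes, targets and regulators. The counts with LPS in all these lists are to be read beside 11.1% higher and 52.4% lower of all tested genes in PWD. These shares were 10.4% and 52.2% in C57 and 11.9% and 59.7% in B6. The medians over all tested genes were -0.32 in PWD, -0.32 in C57 and -0.43 in B6. Of 8 further cytokines of the IL-6 family, 3 were tested, and all 3 rose in each strain. Il27, which pairs with Ebi3 to form interleukin-27, averaged 7.16 TPM in PWD with LPS against 0.477 TPM untreated, 35.3 against 1.83 TPM in C57, and 39.2 against 1.054 TPM in B6. Its response on log2(TPM + 1) was lower in PWD, at -1.80 against B6 (adjusted p = 4.00e-07) and -1.22 against C57 (adjusted p = 0.000174). These differences depend on the pseudocount of 1 TPM, because untreated Il27 was low in all strains and lowest in PWD. Ebi3 rose by 1.502 in PWD, 0.61 in C57 and 1.21 in B6. Of 6 further receptors of the family, 4 were tested, and 3 fell in PWD, 3 in C57 and 4 in B6. The gene not called in PWD was Lifr, the LIF receptor chain, a gene chosen after its values were seen, with 5.16 TPM with LPS against 4.79 TPM untreated, while it fell in C57 (-0.81) and in B6 (-1.54). Of 9 further members of the IL-10 family, 2 were tested, and in each strain Il20rb, a receptor chain, rose (0.52 in PWD, 0.61 in C57 and 0.48 in B6) and Ifnlr1, the interferon lambda receptor, fell (-0.61, -0.54 and -0.63); both were chosen after their values were seen.

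Of 13 Janus kinases, adaptors and other STATs, 8 rose and 2 fell in PWD, 6 and 1 in C57, and 7 and 2 in B6, with a median log2 difference of 0.51, 0.04 and 0.41. Jak2, a kinase that gp130 uses, averaged 164 TPM in PWD with LPS against 93.0 TPM untreated, 187 against 97.2 TPM in C57 and 378 against 217 TPM in B6, and rose by 0.84, 0.94 and 0.80. Jak1, the kinase that both receptors need, had -0.10, -0.11 and 0.11 and was called in none.

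Of 12 brakes on STAT3 signalling, 2 rose and 6 fell in PWD, 3 and 3 in C57, and 2 and 3 in B6, with medians of -0.23, 0.08 and -0.13. Over all tested genes 52.4%, 52.2% and 59.7% fell, with medians of -0.32, -0.32 and -0.43. The 6 of 12 that fell in PWD thus lay near the share over all genes. Socs3, which binds gp130 and stops IL-6 but not IL-10 signalling, averaged 251 TPM in PWD with LPS against 69.1 TPM untreated, 245 against 81.9 TPM in C57 and 310.4 against 107 TPM in B6. It rose by 1.85 ± 0.09, 1.57 ± 0.09 and 1.53 ± 0.09 (adjusted p = 1.61e-15, 1.02e-13 and 6.49e-14), and the difference in this rise passed the threshold in no pair of strains (0.32 between PWD and B6, 0.27 between PWD and C57 and 0.05 between C57 and B6). Socs1 rose by 0.46 in PWD, 0.95 in C57 and 0.46 in B6, and its level under LPS was 15.0 TPM in PWD against 49.2 TPM in C57 and 42.2 TPM in B6.

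Of 21 tested genes known as targets of STAT3 or IL-10, 7 rose and 7 fell in PWD, 8 and 4 in C57, and 10 and 5 in B6, with medians of -0.10, 0.11 and 0.03. Il1rn, the interleukin-1 receptor antagonist, rose by 1.41, 1.40 and 1.54, and Bcl3, an inhibitor of NF-kB targets, by 0.45, 0.42 and 0.76. Nfil3 rose in C57 (0.83) and B6 (0.44) and had 0.03 in PWD, Sbno2 had -0.01 in PWD, 0.11 in C57 and 0.03 in B6, and Il4ra had -0.10, -0.05 and -0.10. Il21r, the interleukin-21 receptor, averaged 8.21 TPM in PWD with LPS against 27.0 TPM untreated and fell by 1.61, and had 0.18 in C57 and -0.24 in B6. Ccnd1, which encodes cyclin D1, fell to 4.12 TPM in PWD with LPS, against 42.5 TPM untreated, and its differences were -3.08 in PWD, -0.51 in C57 and -0.998 in B6. Under LPS, 2 of the 21 targets were higher and 11 lower in PWD than in C57, and 5 higher and 9 lower in PWD than in B6. Of all tested genes, 24.4% were higher and 29.8% lower in PWD than in C57, and 49.7% and 19% than in B6. Against B6 under LPS, Il21r was lower in PWD (-3.04) and Arg1 higher (2.34, adjusted p = 2.25e-06). Arg1 was also higher in C57 than in B6 (2.33).

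Of 20 genes that control Il6 and Il10 transcription or the life of their mRNA, 16 rose and 3 fell in PWD, 13 and 2 in C57, and 12 and 2 in B6, with medians of 0.47, 0.57 and 0.49. Nfkbiz, a nuclear partner of NF-kB needed for Il6 transcription, rose by 2.68, 2.32 and 2.85. Zc3h12a, the RNase that degrades Il6 mRNA, rose by 1.63, 1.73 and 1.52, and Arid5a, which stabilises that mRNA, by 0.52, 1.25 and 0.79. Maf, a transcription factor of Il10, averaged 3.26 TPM in PWD with LPS against 2.25 TPM untreated, 11.6 against 2.47 TPM in C57 and 14.0 against 3.02 TPM in B6. Its response was lower in PWD, at -1.56 against B6 (adjusted p = 7.19e-06) and -1.47 against C57 (adjusted p = 3.07e-05). Cebpb, a C/EBP factor that acts on the Il6 promoter, fell by 1.12 in PWD (adjusted p = 0.00615, with overlap) and had -0.21 in C57 and -0.44 in B6. Of the 3 genes for shedding of the IL-6 receptor, Adam10 fell by 1.04 in PWD, 0.84 in C57 and 1.04 in B6, Adam17 rose by 0.25 in PWD and 0.39 in B6 and had 0.12 in C57, and Rhbdf2 rose by 0.31, 0.89 and 0.51.

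**Figure D5:**
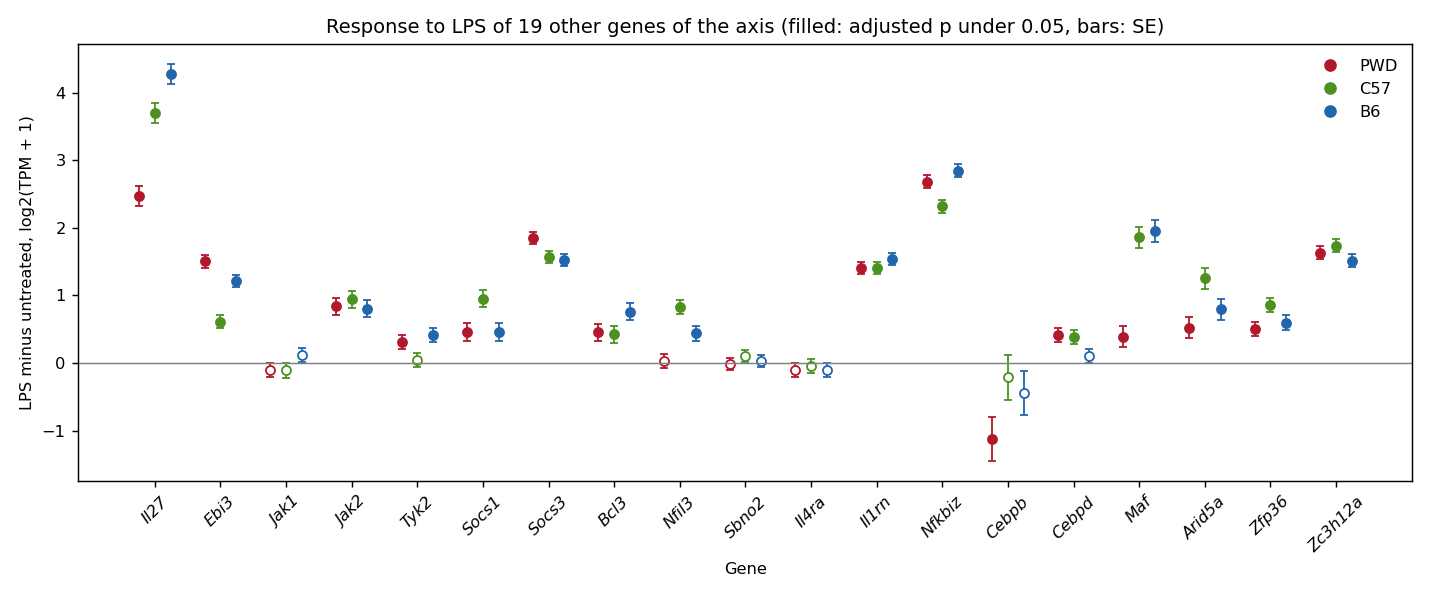
Log2 difference between LPS and untreated libraries (y axis, log2(TPM + 1), bars SE) for other genes of the axis (x axis) in PWD, C57 and B6, filled where called. Il27 and Maf stand lower in PWD (2.47 and 0.39) than in C57 (3.70 and 1.86) and B6 (4.28 and 1.95), and Socs3 lies between 1.53 and 1.85 in all 3. The Il27 values depend on the pseudocount of 1 TPM, since its untreated levels were low.

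The genes whose profile over the 24 libraries was nearest to each ligand and to Stat3 were found among 7834 tested genes with a group mean of 10 TPM or more, model genes and the 9 genes themselves left out, by the root mean square difference of log2(TPM + 1) centred on each gene's mean. The nearest to Il6 were Ptgs2 (0.83), which encodes the prostaglandin synthase COX-2, Tnfsf15 (1.08) and Il12b (1.08). This distance grows with the size of a gene's own changes, so it ranks candidates for 1 gene and is not comparable between genes. The nearest to Il10 were Nfkbiz (0.45), Vcam1 (0.46) and Adora2a (0.49). The nearest to Osm were Daam1 (0.12), Rhbdf2 (0.21) and Ets2 (0.21), and to Lif Dcun1d3 (0.27), Mocs1 (0.28) and Dr1 (0.28). Nearest to Stat3 were Tbc1d13 (0.14), Ppp4r2 (0.15) and Kdm4a (0.16). A near profile need not share the order of the strains under LPS. Il12b averaged 1107 TPM in PWD, 230 TPM in C57 and 290 TPM in B6, highest in PWD, where Il6 was lowest. In the same order Nfkbiz averaged 81.6, 52.9 and 78.5 TPM and Adora2a 55.9, 30.5 and 50.4 TPM. Il10 averaged 4.33, 3.82 and 11.8 TPM. Likeness of profile is given as a description only.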

How the data were processed

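RNA was sequenced from 24 cultures with a stranded kit. The authors deposited 1 table of TPM (transcript abundance scaled to the same total in each library) per gene, and STAR, edgeR and mm10 are named in the submitters' processing notes without versions or roles. The annotation, the TPM tool and the strand setting were not given in the sources used here. Depth cannot be read from TPM, so no counting error can be given. Alignment of PWD reads to mm10, which is not a PWD genome, could change PWD values, and this was not tested.

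From the deposited TPM, 55401 lines were summed to 55291 symbols, and those reaching 1 TPM in 4 or more libraries, 13246 in all, were tested on log2(TPM + 1) with limma 3.58.1 (R 4.3.3; 6 group means, 18 residual degrees of freedom, trend and robust moderation) in 12 comparisons, and called at a Benjamini-Hochberg adjusted p under 0.05. Fold changes on this scale are understated for low genes. Ratios were tested by exact two-sided permutation (scipy 1.17.1). Positions are those of GENCODE M21 (mm10) and promoter sequences come from a RefSeq table (GRCm38.p6) in which 5 of the 9 genes were matched.

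Named genes were the 9 members, 19 fixed names, up to 3 called genes per list and comparison with the largest log2 difference (mean of at least 10 TPM in the group where they were higher), and the 3 nearest patterns. The members and lists were chosen with earlier results of these data known. Alternatives were another pseudocount, filter, scaling, model or set of libraries, the mouse as a block, and each pair of mice. Libraries of the same strain and number come from 1 mouse, per the series' design text; their deviations correlated at 0.0513 to 0.176 over 12 pairs.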

Additional observations from a re-analysis of the deposited data

Results flagged for a closer look

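Of 69 sets of 4 library values checked for a value far from the other 3, 3 held one, and chance alone gives about 1 in 20. Il10 stood at 0.0662 TPM in C57_Untreated replicate 1, where the other 3 libraries were listed at 0. Beside 3 values of 0 any value above 0 would have been flagged, so the chance rate does not hold for it. Il10ra stood at 48.5 TPM in PWD_LPS replicate 1, below the other 3 at 55.8 to 56.4 TPM. The log2 ratio of Il10ra to Il10rb was -0.83 in PWD_Untreated replicate 4, where the others were at -0.70 to -0.69.

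Of 27 differences between the LPS responses of 2 strains, 12 passed limma's threshold. Between PWD and B6 they were Il6 (-1.33), Il10 (-1.09), Stat3 (-0.88), Il6ra (0.62) and Il10ra (0.48), where 16% of all tested genes were called higher and 7.5% lower. Between PWD and C57 they were Osm (-0.84), Il6st (-0.74), Lif (0.72) and Il10ra (0.44), where 5.41% and 5.99% were called. Between C57 and B6 they were Il6 (-1.33), Il10 (-1.27) and Stat3 (-0.58), where 10.9% and 3.39% were called. The Il10 differences against B6 missed the threshold with a pseudocount of 0.1 TPM. The PWD and C57 values against B6 share the B6 libraries.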

How the results depend on the processing

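Of 2256 values of single genes under an alternative, 2031 kept their direction and their side of the threshold, 93 lost the call, 73 gained one and 59 changed sign. Of the 59, 0 were called as deposited and 4 under the alternative. Depth is unknown for TPM, and small groups limit the precision. The causes of these changes were not tested.

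The count of all genes called was 5600 in mice 1 and 2 alone for LPS in PWD and 3393 for untreated C57 against B6. For responses it was 5642 without structural RNA between PWD and B6. Between PWD and C57 it was 2835 with median-of-ratios scaling, 2966 with quantile normalization, 2730 without structural RNA and 2378 in mice 1 and 2. Between C57 and B6 it was 3338 with median-of-ratios scaling, 4394 without structural RNA and 725 in mice 1 and 2. Of the 9 genes, 8 were called with median-of-ratios scaling between C57 and B6 under LPS and 8 between the responses of PWD and B6. Between the responses of PWD and C57, 2 were called with a pseudocount of 0.1 TPM, with no filter and in a fit of the groups compared, and 2 to 4 with 1 library left out. Between the responses of C57 and B6, 5 were called with median-of-ratios scaling, 6 with quantile normalization and 6 without structural RNA.

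In mice 1 and 2 alone, the sign changed for Il10rb with LPS in C57 (-0.12), for untreated Il10 in C57 against B6 (0.0025), for Il6 (0.13), Il6st (-0.17), Lif (-0.013) and Il10rb (-0.054) in C57 against B6 under LPS, and for the responses of Osm (0.042) and Il10rb (0.078) in PWD against B6, Stat3 (0.084) in PWD against C57 and Il10ra (-0.048) in C57 against B6. In mice 3 and 4 alone, it changed for untreated Il6st (0.30), Il10rb (0.13) and Stat3 (0.11) in PWD against B6, untreated Il6ra (0.12) and Stat3 (0.23) in PWD against C57, Osm (-0.14) in PWD against B6 and Il6ra (0.19) in C57 against B6 under LPS, and the responses of Il6 (-0.26), Il6ra (-0.091) and Il10rb (-0.17) in PWD against C57. The log2 ratio of Il6 to Il10 under LPS was then -0.10 in PWD against B6, and that of Il10ra to Il10rb -0.018 in untreated PWD against C57.

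With median-of-ratios scaling, the sign changed under LPS for Il6ra (-0.15) and Osm (-0.20) in PWD against B6 and for Il6st (-0.35), Lif (-0.17) and Il10rb (-0.32) in C57 against B6, and for the responses of Il6 (-0.0057) in PWD against C57 and Il10ra (-0.15) in C57 against B6. With quantile normalization, it changed for untreated Lif (-0.13) in PWD against B6 and Stat3 (0.024) in PWD against C57, under LPS for Il6ra (-0.30), Osm (-0.11) and Lif (-0.18) in PWD against B6 and Il6 (0.085), Il6st (-0.21), Lif (-0.28) and Il10rb (-0.028) in C57 against B6, and for the response of Lif (-0.051) in PWD against B6. Called under these alternatives were Il6st and Il10rb with median-of-ratios scaling and Il6ra and Il6st with quantile normalization, all under LPS.

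The log2 ratio of Il6st to Il6ra changed with LPS in C57 by 0.69 with a pseudocount of 1 TPM, 1.02 in mice 1 and 2 and 0.73 in mice 3 and 4, and in B6 by 0.52 with that pseudocount. Untreated, it was 0.56 in mice 1 and 2 and 0.37 in mice 3 and 4 in PWD against B6, and 0.64 and 0.39 in PWD against C57.

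With 1 library left out, untreated Il6st ran from -0.17 to 0.031 and Lif from -0.013 to 0.24 in PWD against B6, and Stat3 from -0.13 to 0.018 in PWD against C57. Under LPS, Osm ran from -0.0083 to 0.23 in PWD against B6, and Il6 from -0.19 to 0.066 and Il6st from -0.039 to 0.13 in C57 against B6. The response of Il6 ran from -0.16 to 0.087 in PWD against C57 and that of Il10ra from -0.019 to 0.10 in C57 against B6. The ratio of Il10ra to Il10rb ran from -0.025 to 0.054 in untreated PWD against C57, and that of Il6st to Il6ra from -0.11 to 0.0078 in untreated C57 against B6.

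With the mouse as a replicate block, the response of Il10ra in PWD against C57 (0.44, adjusted p = 0.0503) lost its call and that of Osm in C57 against B6 (0.50, adjusted p = 0.0322) gained one, and no other call of the 9 genes changed. The ratios of Il10ra to Il10rb (0.43 in PWD, 0.19 in C57 and -0.24 in B6) and of Il6st to Il6ra (-0.36, 0.87 and 0.69) kept their values with LPS within mice but not their calls, since the exact test within 4 mice, added after the data were seen, cannot go below p = 0.125. Libraries of a mouse correlated best with each other in 10 of 12 pairs.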
